A study of Mus musculus with 6 samples.

Results

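Integrins and laminins are the receptors and the ligands of one adhesion system, and their genes were compared between degenerating and healthy mouse retina. All genes of the count table whose symbol starts with Itga, is Itgb followed by digits, or starts with Lama, Lamb or Lamc followed by a digit were taken, which gave 37 of the 24062 genes: 18 integrin alpha chains, 8 integrin beta chains and 11 laminin chains. Within them, the 4 leukocyte integrins Itgam, Itgax, Itgal and Itgb2 were contrasted with the other 33. The samples were whole retinas of rd10 mice and of wild-type (WT) mice, both of strain C57Bl6/J and both at postnatal day 30, with 3 RNA-seq libraries per group and 2 frozen retinas in each sample. In rd10 mice a missense change in Pde6b, which encodes a subunit of the phosphodiesterase of rods, leads to early loss of the rods. Whether the samples within a group are from different animals is not in the labels, so p-values here reflect sample-to-sample spread that may be technical. In bulk retina, fewer cells of a type and less RNA per cell cannot be told apart.

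An integrin is a pair of an alpha and a beta chain that spans the cell membrane and ties the matrix or a neighbouring cell to the actin skeleton through talins, kindlins and other adaptors. A laminin is a trimer of an alpha, a beta and a gamma chain and forms the sheet on which basement membranes are built; in the retina these are the inner limiting membrane under the endfeet of Müller glia, the sleeves of the blood vessels, and Bruch's membrane beneath the pigment epithelium. The leukocyte integrins pair the beta chain encoded by Itgb2 with an alpha chain that is restricted to blood-derived and microglial cells, and the product of Itgam is a standard surface marker of microglia.

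Library totals were 10923556 to 12171088 counts in rd10 and 13573035 to 15818918 in WT. Levels are given as CPM, counts scaled to a common library total with TMM factors, which allow for differences in RNA composition. The summed CPM of 5 rod genes was 16289, 19382 and 23899 in the rd10 libraries, against 94816, 88635 and 80775 in the WT libraries. One library of each group stood apart for transcripts rich in G and C: over the 9 tested members with a transcript GC content of at least 55%, the median deviation from the own group's mean was 0.51 in Rd10-4 and 0.60 in WT-1 (log2 scale), against -0.26 to -0.23 in the other rd10 libraries and -0.32 to -0.18 in the other WT libraries. These members are Itga2b, Itga3, Itga5, Itga7, Itgb4, Itgb5, Lama5, Lamb2 and Lamc3; the 4 leukocyte integrins are not among them. For each of these 9 genes a value without 1 or both of these libraries is given with its result.

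The leukocyte integrin genes are textbook targets of PU.1, a transcription factor of myeloid cells that binds sites with a GAGGAA core, so the sequence before the start of the 2 of them held in RefSeq's promoter table (GRCm38.p6) is shown. Each line gives the 150 bases before the RefSeq start site on the plus strand, in lower case, with GAGGAA or its reverse complement TTCCTC in capitals. The first is chr7:128062490-128062639 and the second chr7:128129400-128129549.
Itgam: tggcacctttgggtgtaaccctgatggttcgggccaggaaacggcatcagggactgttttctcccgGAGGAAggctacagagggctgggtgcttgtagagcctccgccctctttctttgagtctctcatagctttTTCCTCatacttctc
Itgax: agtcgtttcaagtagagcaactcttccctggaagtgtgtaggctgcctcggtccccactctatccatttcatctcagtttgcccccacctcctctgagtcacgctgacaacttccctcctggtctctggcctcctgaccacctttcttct
The Itgam sequence holds a GAGGAA that begins 84 bases before the start and a TTCCTC that begins 15 bases before it. No match was found in the 250 bases before the Itgax start. Over all 32851 promoters of the table, 23.3% hold GAGGAA on either strand in those 250 bases, and so do 13 of the 26 promoters of the 23 member genes that are in the table. A match describes these letters and does not show a binding site.

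Of the 37 genes, 31 passed the filter on low counts and were tested, and 6 did not, among them Itgad with no count in any library. In edgeR's quasi-likelihood test with Benjamini-Hochberg adjustment over all 13905 genes tested, 6 of the 31 were called higher in rd10 at a threshold of 0.05 (19.4%) and none lower. None of the 31 was lower at an unadjusted p under 0.05, in DESeq2 or in limma voom either. Over all genes, 14.4% were called, 7.12% higher and 7.32% lower. The called genes were Itgax, Itgam and Itgb2 among the leukocyte integrins, the integrin alpha chains Itga9 and Itga6, and the laminin chain Lamc1. All 3 rd10 libraries lay above all 3 WT libraries in 14 of the 31 (45.2%) and below them in none. Over all genes tested the groups did not overlap in 35.7%, with rd10 above WT in 17.1% and below it in 18.6%. Members with few WT counts, such as Itgax, Itgal and Itga2b, passed the filter only through rd10, where they are high. The same filter removed Itgb6, which had 0, 0 and 0 counts in the rd10 libraries, against 2, 2 and 3 in the WT libraries. The member counts and medians given here are thus partly shaped by the filter. The median log2 fold change of rd10 over WT was 0.55 over the 31, 2.12 over the 4 leukocyte integrins and 0.45 over the other 27, against -0.04 over all genes tested. Without WT-1 the number called was 11 of the 31, and without WT-4, Rd10-3 or Rd10-5 it was 4 each. Itga9, Itgam, Itgax and Itgb2 were called in each of the 17 alternatives.

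**Figure D1:**
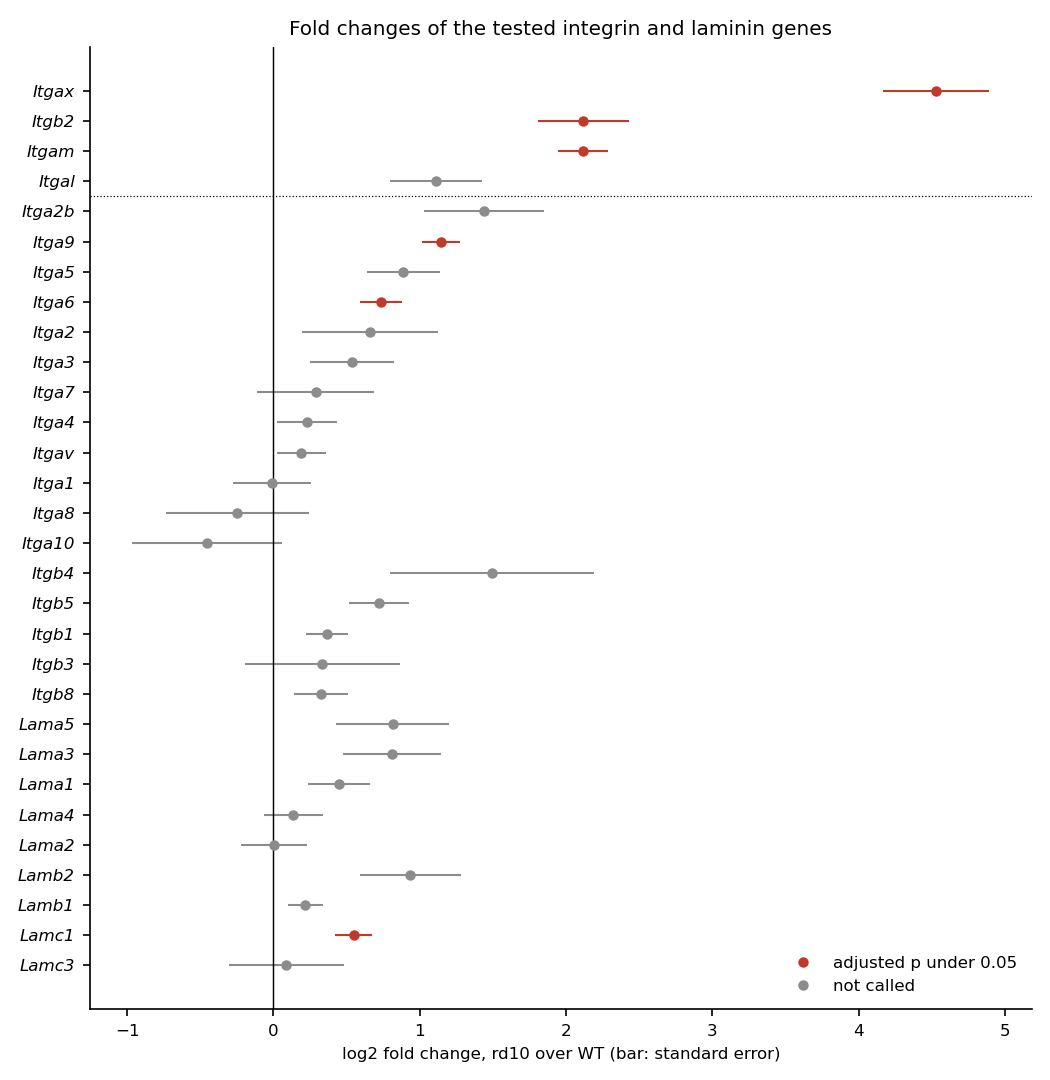
Log2 fold change of rd10 over WT with its standard error (horizontal axis) for 30 of the 31 tested integrin and laminin genes (vertical axis), with called genes in red. The values run from -0.45 for Itga10 to 4.53 for Itgax, and only Itga1, Itga8 and Itga10 lie below 0; under scaling on inner neuron genes 21 of the 31 are positive.

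**Figure D2:**
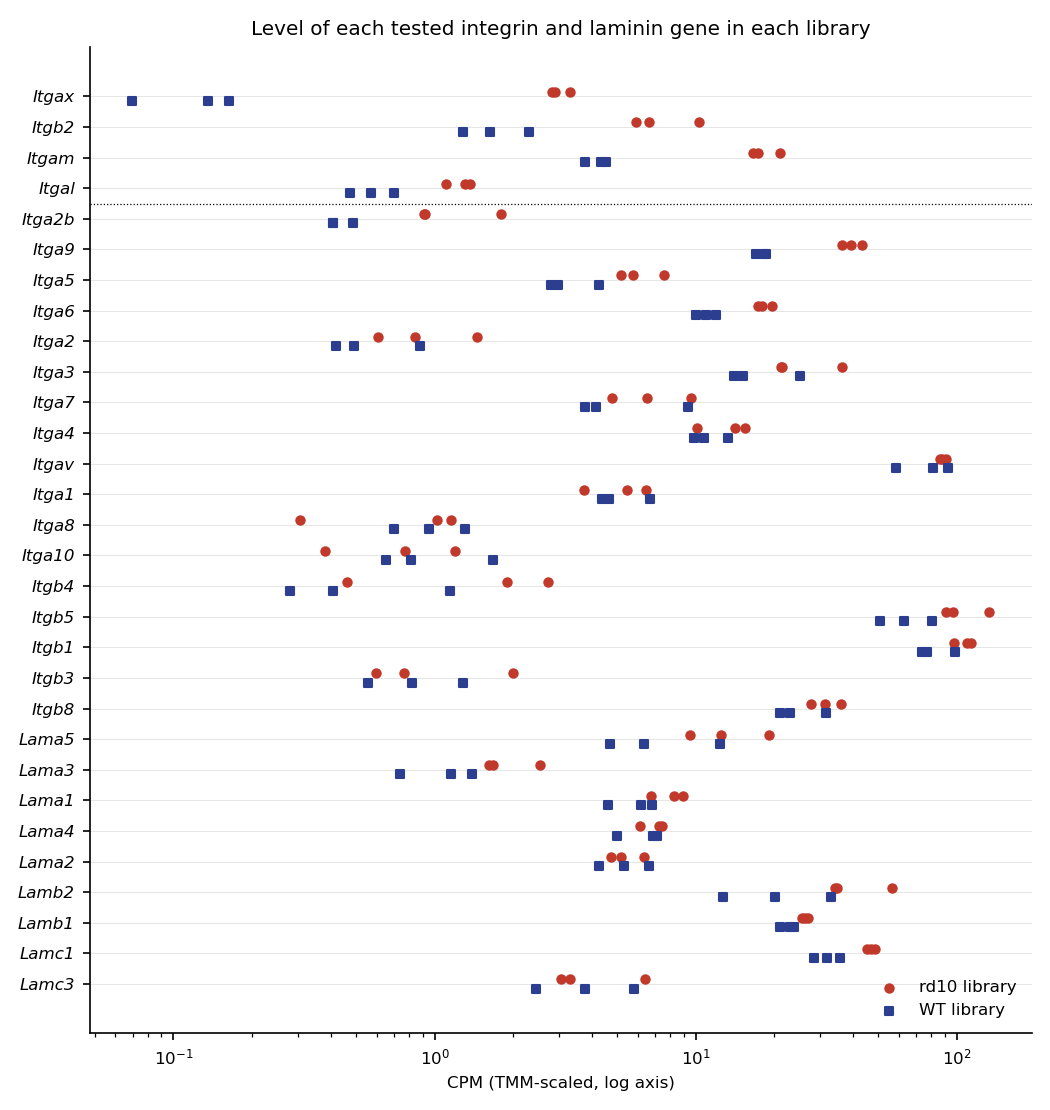
CPM of the same 30 genes in each library on a log axis, with rd10 libraries as circles drawn above WT libraries as squares, and the leukocyte integrins above the dotted line. For Itgax, Itgam, Itgb2 and Itgal all rd10 points lie to the right of all WT points, while Itgb1, Itgb5 and Itgav are the most abundant of the genes and lie closer together.

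All 4 leukocyte integrins were higher in every rd10 library than in any WT library, and 3 of them were called. Over all genes tested, rd10 lay above WT in 17.1%, and 7.12% were called higher. Itgax and Itgal passed the filter only through rd10, where they are high. Itgam, the alpha chain of complement receptor 3, had 217, 246 and 228 counts in the rd10 libraries, against 46, 65 and 64 in the WT libraries. That is 18.3 ± 2.31 CPM in rd10 and 4.21 ± 0.399 CPM in WT (mean ± SD, n = 3 libraries per group), and the groups lay far apart. The rise was 4.33-fold, with a log2 fold change of 2.12 ± 0.17 (± standard error from the fit, here and below) and an adjusted p of 0.000453. The gene lies at chromosome 7, 128062640 to 128128160 in mm10, per the authors' deposited table. In GENCODE M21, 68.7% of its exon bases are shared with the predicted gene Gm49368 on the same strand, which is not among the genes counted. The annotation used for counting is not stated, so whether this overlap changed the Itgam count cannot be told.

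Itgax, the alpha chain of complement receptor 4 and a marker of dendritic cells and of microglia responding to degeneration, was nearly unread in WT. It had 43, 34 and 37 counts in the rd10 libraries, against 2, 1 and 2 in the WT libraries, or 3.004 ± 0.260 CPM in rd10 and 0.123 ± 0.0482 CPM in WT. Every rd10 library held at least 34 counts and no WT library more than 2. From the pooled counts, 114 in rd10 and 5 in WT, the ratio was 24.9, with an exact 95% interval of 10.3 to 78.0 that covers counting error only. The adjusted p was 0.000453; the fitted log2 fold change of 4.53 ± 0.36 depends on the prior count. Itgax, at chromosome 7, 128129547 to 128150657 in GENCODE M21 (GRCm38), lies between Itgam and Itgad.

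Itgb2, the beta chain that all the leukocyte alpha chains share, had 86, 121 and 78 counts in the rd10 libraries, against 20, 33 and 19 in the WT libraries. It averaged 7.61 ± 2.36 CPM in rd10 and 1.74 ± 0.513 CPM in WT, a 4.34-fold rise (log2 fold change 2.12 ± 0.31, adjusted p = 0.00383). Rd10-4 was the highest rd10 library and WT-4 the highest WT library, and even the lowest rd10 library, at 5.93 CPM, lay well above WT-4 at 2.30 CPM. The gene lies on chromosome 10, 77530252 to 77565708 (mm10).

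Itgal, the alpha chain of LFA-1, through which lymphocytes and other leukocytes bind ICAM proteins, had only 17, 13 and 18 counts in the rd10 libraries, against 7, 10 and 7 in the WT libraries. All rd10 libraries lay above all WT libraries, at 1.26 ± 0.136 CPM in rd10 and 0.581 ± 0.111 CPM in WT. The log2 fold change of 1.11 ± 0.31 missed the threshold with an adjusted p of 0.0520. Over the alternatives that tested it the adjusted p ran from 0.0198 to 0.186, and 4 of them called it. Itgad, the alpha chain found on some tissue macrophages, had 0 counts in all 6 libraries, which allows up to 0.203 to 0.256 CPM (3 counts per library, counting error only).

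**Figure D3:**
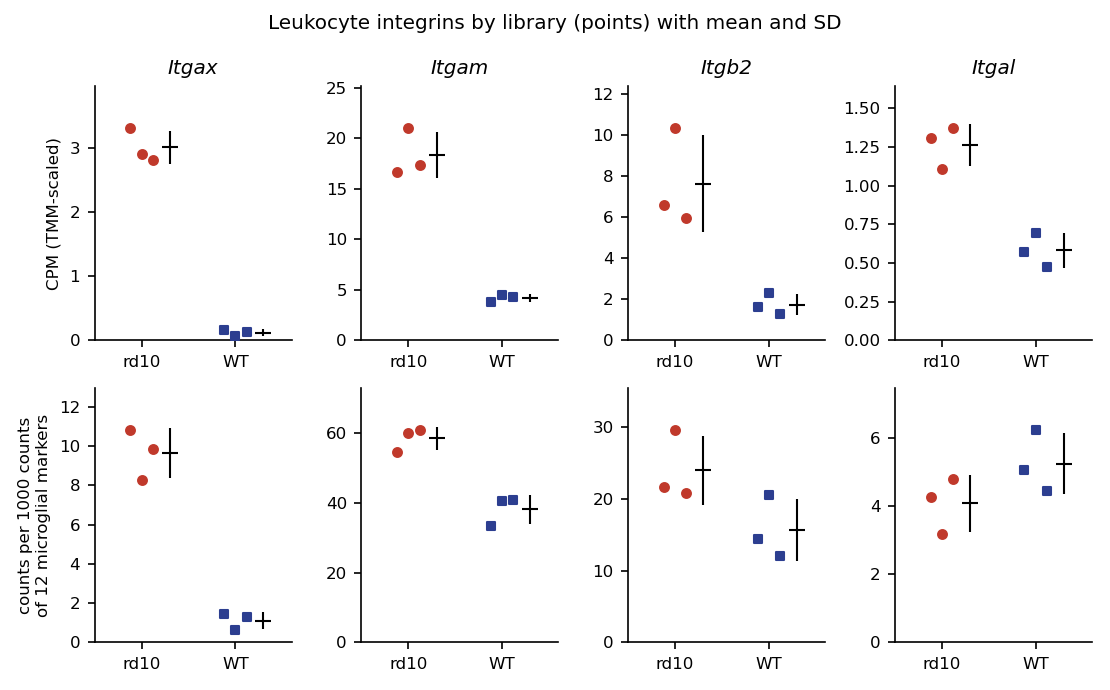
Top row, CPM of the 4 leukocyte integrins in each library, with rd10 left of WT and bars for mean and SD (n = 3 libraries per group). Bottom row, the same genes divided by the summed counts of 12 microglial marker genes and multiplied by 1000: Itgax and Itgam stay apart between the groups, Itgb2 only narrowly, and Itgal overlaps.

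Markers of microglia, the resident macrophages of the retina, moved with these genes. Of 12 microglial markers that hold no integrin, 11 were called higher, against 7.12% of all genes tested. All 12 had a positive log2 fold change, with a median of 1.52, and Sall1 was not called (log2 fold change 0.72, adjusted p = 0.131). Their summed level was 305, 349 and 286 CPM in the rd10 libraries, against 113, 112 and 107 CPM in the WT libraries. Csf1r, the receptor microglia need to survive, had 72.3 ± 10.5 CPM in rd10 and 25.7 ± 2.08 CPM in WT (log2 fold change 1.49 ± 0.15). Cx3cr1, the fractalkine receptor, had 30.4 ± 1.97 CPM in rd10 and 10.4 ± 0.849 CPM in WT (log2 fold change 1.55 ± 0.14). The part of this shift in the level of each integrin was not tested, but it can be set beside them.

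Relative to the 12 microglial markers, the 4 leukocyte integrins did not keep one ratio. Itgax stood at 10.8, 8.30 and 9.86 counts per 1000 marker counts in the rd10 libraries, against 1.45, 0.622 and 1.27 in the WT libraries, a ratio of means of 8.67. Itgam stood at 54.5, 60.03 and 60.8 in the rd10 libraries, against 33.3, 40.4 and 40.7 in the WT libraries, a ratio of 1.53, and both genes had higher values in every rd10 library than in any WT library. Itgb2 stood at 21.6, 29.5 and 20.8 in the rd10 libraries, against 14.5, 20.5 and 12.1 in the WT libraries; the ratio of means was 1.53, but the lowest rd10 library lay only just above the highest WT library. Itgal stood at 4.27, 3.17 and 4.80 in the rd10 libraries, against 5.06, 6.22 and 4.46 in the WT libraries, with a ratio of 0.778 and groups that overlap. Against the 5 markers of resting microglia alone (P2ry12, Tmem119, Siglech, Sall1 and Cx3cr1), the ratios were 9.89 for Itgax, 1.72 for Itgam, 1.71 for Itgb2 and 0.856 for Itgal, and Itgb2 then overlapped between the groups. No test was run on these ratios.

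The mix of alpha chains that can pair with Itgb2 is given per length of transcript, since longer transcripts collect more counts. Itgam made up 78.9, 84.4 and 81.3% of it in the rd10 libraries, against 86.1, 88.2 and 89.6% in the WT libraries. Itgax made up 16.4, 12.2 and 13.8% in the rd10 libraries, against 3.91, 1.42 and 2.93% in the WT libraries. Itgal made up 4.73, 3.41 and 4.91% in the rd10 libraries, against 10.02, 10.4 and 7.49% in the WT libraries. Itgam was thus the main alpha chain in every library, and the order of Itgax and Itgal was opposite in the 2 groups.

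Markers of blood leukocytes were low in all libraries. Of 6 T cell markers only Cd8a passed the filter and it was not called; the 6 summed to 30, 27 and 24 counts in the rd10 libraries, against 13, 18 and 13 in the WT libraries. Cd3d and Cd3e, which belong to the T cell receptor complex, had at most 1 count in any library, and Cd3g had 4, 2 and 4 counts in the rd10 libraries, against 0, 0 and 0 in the WT libraries. The neutrophil gene Mpo had no count in any library. B cell markers summed to 4, 3 and 2 counts in the rd10 libraries, against 5, 6 and 2 in the WT libraries, and neutrophil markers to 1, 1 and 2 in the rd10 libraries, against 1, 6 and 4 in the WT libraries. The 3 monocyte markers summed to 29, 18 and 31 counts in the rd10 libraries, against 8, 21 and 14 in the WT libraries. Scaled, these markers summed to 2.23, 1.53 and 2.36 CPM in the rd10 libraries, against 0.654, 1.46 and 0.949 CPM in the WT libraries. The rd10 sums thus lay above the WT sums, if narrowly, for the 3 markers. Of these only Ly6c2 was tested, with 14, 12 and 17 counts in the rd10 libraries, against 7, 20 and 14 in the WT libraries, and its groups overlapped (log2 fold change 0.20 ± 0.37, adjusted p = 0.756). The chemokine receptor Ccr2 had 13, 5 and 1 counts in the rd10 libraries, against 0, 1 and 0 in the WT libraries, and Plac8 had 2, 1 and 13 in the rd10 libraries, against 1, 0 and 0 in the WT libraries. The part of such cells in the leukocyte integrin counts was not tested.

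Within each library, the gap between the 4 leukocyte integrins and the other tested members was similar among replicates. The mean log2 CPM of the leukocyte integrins minus that of the other 27 was -0.75, -0.84 and -0.75 in the rd10 libraries, against -2.59, -2.23 and -2.53 in the WT libraries. Both terms come from the same library, so its scaling enters only through the prior count. The difference was 1.67, and it was 1.89 with a smaller prior count and 1.72 with medians. The median log2 fold changes of these 2 groups of genes differed by 1.37 without both WT-1 and Rd10-4. The leukocyte integrins took 4.49% to 4.97% of the summed CPM of all 37 genes in the rd10 libraries, against 1.33% to 1.79% in the WT libraries, so they remained a small fraction of integrin and laminin transcripts.

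Among the other integrin alpha chains, 2 of the 12 tested were called higher, beside 7.12% of all genes tested. Itga9, which pairs with Itgb1 and binds tenascin C, osteopontin and VCAM1, had 39.2, 43.5 and 36.4 CPM in the rd10 libraries, against 17.01, 18.5 and 18.3 CPM in the WT libraries. The groups were well apart and tight, with means of 39.7 ± 3.57 CPM in rd10 and 17.9 ± 0.822 CPM in WT, and the rise was 2.21-fold (log2 fold change 1.15 ± 0.13, adjusted p = 0.00120). Itga6, the alpha chain of the main laminin receptors, had 17.3, 17.98 and 19.6 CPM in the rd10 libraries, against 11.9, 10.03 and 10.99 CPM in the WT libraries. It rose 1.67-fold, with groups that did not overlap (log2 fold change 0.74 ± 0.14, adjusted p = 0.0121). Leaving out WT-4, Rd10-3 or Rd10-5 ended that call, with adjusted p-values of 0.0623, 0.0512 and 0.0555. Itga9 lies on chromosome 9, 118606690 to 118901003 and Itga6 on chromosome 2, 71745616 to 71858416 (mm10).

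The alpha chains can be grouped by the ligand they are known to bind. Of the laminin-binding chains Itga3, Itga6 and Itga7, only Itga6 was called. Itga3 had 276, 425 and 281 counts in the rd10 libraries, against 307, 218 and 207 in the WT libraries, at 26.3 ± 8.62 CPM in rd10 and 18.1 ± 6.08 CPM in WT, so the groups overlapped (log2 fold change 0.54 ± 0.29, adjusted p = 0.252). In both groups the library that stood apart, Rd10-4 or WT-1, was the highest. Without WT-1 the log2 fold change was 0.84 (adjusted p = 0.0362). Its range over the alternatives was 0.23 to 0.84, with adjusted p-values from 0.0206 to 0.626. Itga7, the laminin receptor of muscle, had a log2 fold change of 0.29 ± 0.40 (adjusted p = 0.672), which was 0.81 without WT-1 (adjusted p = 0.0832) and -0.01 without Rd10-4. The collagen-binding chains Itga1, Itga2 and Itga10 gave -0.01 ± 0.27, 0.66 ± 0.46 and -0.45 ± 0.51, all with overlapping groups and adjusted p-values of 0.987, 0.379 and 0.601. None of these 3 reached an unadjusted p under 0.05, and neither DESeq2 nor limma voom called any.

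None of the 4 alpha chains that recognise the RGD motif of fibronectin, vitronectin or fibrinogen was called in edgeR. In 2 of them the unadjusted p was under 0.05 and all rd10 libraries lay above all WT libraries, and DESeq2 and limma voom called 1 each, Itga5. Itgav, the partner of several beta chains and a receptor with Itgb5 on the pigment epithelium for shed outer segments, had 91.03, 87.8 and 86.4 CPM in the rd10 libraries, against 58.3, 81.01 and 92.8 CPM in the WT libraries. The groups overlapped, and WT-1 was the lowest library (log2 fold change 0.19 ± 0.17, adjusted p = 0.491); the sign turned under scaling on inner neuron genes (-0.12). Itga5, the fibronectin receptor chain, had 75, 89 and 68 counts in the rd10 libraries, against 52, 40 and 44 in the WT libraries. The log2 fold change was 0.89 ± 0.25 with an adjusted p of 0.0504, and 9 of the 17 alternatives called it, among them the fit without WT-1 (adjusted p = 0.0177). Its log2 fold change ran from 0.59 to 1.13 over the 17, with adjusted p-values up to 0.170. Itga2b, the alpha chain of the platelet fibrinogen receptor, had 12, 21 and 12 counts in the rd10 libraries, against 5, 7 and 6 in the WT libraries (log2 fold change 1.44 ± 0.41, adjusted p = 0.0532); the log2 fold change was 1.399 without WT-1 (adjusted p = 0.0715) and 1.06 without Rd10-4 (adjusted p = 0.178). Of 4 platelet markers, Pf4 and Gp9 had at most 2 counts in any library, and Ppbp had 3, 1 and 2 counts in the rd10 libraries, against 0, 0 and 0 in the WT libraries. Gp1bb, the only one tested, had 142, 156 and 147 counts in the rd10 libraries, against 134, 114 and 82 in the WT libraries, and was not called (log2 fold change 0.54 ± 0.25, adjusted p = 0.193), but was called without WT-1. The part of platelets in the Itga2b counts was not tested. Itga8 had a log2 fold change of -0.25 ± 0.49 (adjusted p = 0.776), and Itga4, the lymphocyte chain that binds VCAM1, 0.23 ± 0.20 (adjusted p = 0.499).

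Of the beta chains other than Itgb2, none of the 5 tested was called in edgeR; in 2 the unadjusted p was under 0.05, and DESeq2 and limma voom called 1 each, Itgb5. Per kilobase of exon, Itgb5 and Itgb1 stood far above the rest, at 30.1 ± 6.45 CPM per kilobase in rd10 and 18.2 ± 4.17 in WT for Itgb5 and at 26.2 ± 1.96 in rd10 and 20.3 ± 3.26 in WT for Itgb1. By the exon lengths used here, these 2 chains did not differ beyond their spread within either group. The authors' deposited table puts Itgb1 above Itgb5, at 26.5 against 17.3 FPKM in rd10 and 20.6 against 10.5 FPKM in WT. Itgb1, the common partner of most matrix-binding alpha chains, had 113, 97.7 and 109 CPM in the rd10 libraries, against 73.6, 76.7 and 98.1 CPM in the WT libraries; the library Rd10-4 lay below WT-23 (log2 fold change 0.37 ± 0.14, adjusted p = 0.126). Without WT-23 it was called, with an adjusted p of 0.0286. Itgb5 had 96.6, 133 and 90.8 CPM in the rd10 libraries, against 80.4, 63.04 and 50.9 CPM in the WT libraries. All rd10 libraries lay above all WT libraries, with Rd10-4 and WT-1 the highest of their groups, and the log2 fold change of 0.72 ± 0.21 just missed the threshold (adjusted p = 0.0536). It was called in 9 of the 17 alternatives, with an adjusted p of 0.00883 without WT-1 and 0.00815 without both libraries that stood apart. In the others its adjusted p reached up to 0.163.

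Itgb8, which with Itgav activates TGF-beta on glia and is at an intermediate level, had 31.2, 36.04 and 27.7 CPM in the rd10 libraries, against 23.1, 21.04 and 31.5 CPM in the WT libraries. The highest WT library lay among the rd10 libraries (log2 fold change 0.33 ± 0.19, adjusted p = 0.277). Itgb3, the partner of Itga2b and Itgav, gave 0.33 ± 0.53 (adjusted p = 0.716). Itgb4, the partner of Itga6 in epithelia, had 6, 32 and 25 counts in the rd10 libraries, against 14, 4 and 6 in the WT libraries, with a spread inside the groups as wide as the gap between them (log2 fold change 1.496 ± 0.70, adjusted p = 0.194). Rd10-4 and WT-1 were the highest libraries of their own groups, and the log2 fold change was 2.26 without WT-1 (adjusted p = 0.0516) and 0.99 without Rd10-4 (adjusted p = 0.452).

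All 10 tested laminin chains had a positive log2 fold change, with a median of 0.50, although Lama2, Lama4, Lamb1 and Lamc3 turned negative under scaling on inner neuron genes. In 5 of the 10 (50%) all rd10 libraries lay above all WT libraries, against 17.1% of all genes tested. Only Lamc1 was called (10%, against 7.12% called higher over all genes tested). Lamc1, the gamma chain of nearly all laminins outside the skin, had 46.7, 48.6 and 45.3 CPM in the rd10 libraries, against 35.8, 31.97 and 28.4 CPM in the WT libraries. All rd10 libraries lay above all WT libraries, and the rise was 1.46-fold (log2 fold change 0.55 ± 0.13, adjusted p = 0.0258). The call was lost in 6 of the 17 alternatives, with adjusted p-values of 0.0971 without WT-4, 0.111 without Rd10-3, 0.0891 without Rd10-4, 0.0735 without Rd10-5, 0.0868 against a fold of 1.2 and 0.151 under scaling on inner neuron genes. It lies on chromosome 1, 153218922 to 153332786 (mm10).

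Lamb2, the beta chain of laminins of the inner limiting membrane and of synapses, was per length the most abundant beta chain in rd10. It had 34.2, 56.7 and 34.9 CPM in the rd10 libraries, against 33.1, 20.1 and 12.7 CPM in the WT libraries. All rd10 libraries lay above all WT libraries, but the lowest rd10 library and WT-1 were almost level, and the log2 fold change of 0.93 ± 0.35 was not called (adjusted p = 0.113). Without WT-1 it was 1.35 (adjusted p = 0.00781), and without both libraries that stood apart the adjusted p was 0.00848. Its range over the alternatives was 0.64 to 1.35, with adjusted p-values up to 0.289. Lamb1, the beta chain of developing and vascular basement membranes, was tighter: it had 26.2, 25.6 and 27.01 CPM in the rd10 libraries, against 23.7, 20.97 and 23.1 CPM in the WT libraries (log2 fold change 0.22 ± 0.12, adjusted p = 0.265). For this gene the groups did not overlap, although the difference was not called.

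Among the alpha chains, Lama5 and Lama1 had the highest group means per length, although Lama4 lay above Lama5 in WT-4 and WT-23. Lama5, found in vessels and many epithelia, had 9.52, 19.1 and 12.5 CPM in the rd10 libraries, against 12.4, 6.34 and 4.68 CPM in the WT libraries. The groups overlapped, with WT-1 among the rd10 libraries (log2 fold change 0.82 ± 0.39, adjusted p = 0.202). Without WT-1 the log2 fold change was 1.31 (adjusted p = 0.0151), and without Rd10-4 it was 0.50. Its adjusted p ran from 0.00827 to 0.472 over the alternatives. Lama1, the alpha chain needed for the inner limiting membrane, gave 0.45 ± 0.21 (adjusted p = 0.199). Lama4 and Lama2, chains of vessels and of muscle, gave 0.13 ± 0.20 (adjusted p = 0.701) and 0.00 ± 0.23 (adjusted p = 0.993). Lama3, an alpha chain of epithelia, was low, and its CPM was higher in every rd10 library than in any WT library. It had 2.53, 1.62 and 1.67 CPM in the rd10 libraries, against 0.736, 1.39 and 1.15 CPM in the WT libraries. It was not called (log2 fold change 0.81 ± 0.33, adjusted p = 0.145). Lamc3, a gamma chain of the retina, gave 0.09 ± 0.39 (adjusted p = 0.904), with 0.44 without WT-1 and -0.33 without Rd10-4.

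**Figure D4:**
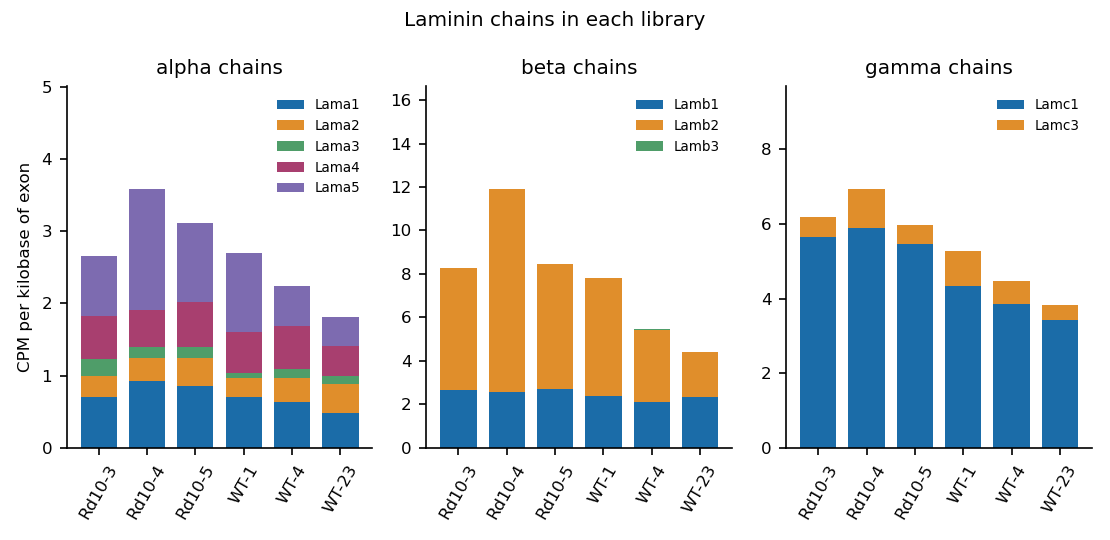
Stacked CPM per kilobase of exon for the laminin alpha and beta chains and the gamma chains Lamc1 and Lamc3 (vertical axis) in each library, rd10 left of WT. Lamc1 makes up, per length, 85.4% of the gamma chains in rd10 and 83.4% in WT, and the Lamb2 part of the beta chains is tallest in Rd10-4 and, within WT, in WT-1.

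The make-up of the laminin chains per length varied among libraries. Lamb2 made up 67.97, 78.3 and 67.7% of the beta chains in the rd10 libraries, against 69.5, 60.6 and 47.3% in the WT libraries. The shares overlap, with the highest values in Rd10-4 and WT-1, the libraries that stood apart for GC-rich members. Lamb2 is itself 1 of the 9 members by which they stood apart, so its share is no separate evidence. Lamb2 has a transcript GC content of 58.8% and Lamb1 one of 52.5%, and the part of GC content in these shares was not tested. Lamc1 made up 87.5, 82.2 and 86.6% of the gamma chains in the rd10 libraries, against 79.7, 84.9 and 85.6% in the WT libraries. Of the alpha chains, Lama1 had 26.2, 25.8 and 27.5% in the rd10 libraries, against 26.1, 28.6 and 26.2% in the WT libraries, the steadiest of the 5.

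In 10 members other than Itgal the mean level was under 1 CPM, with 0 to 24 counts per library: Itga2, Itga2b, Itga8, Itga10, Itga11, Itgad, Itgae, Itgb6, Itgb7 and Lamb3. Of these, Itga11, Itgad, Itgae, Itgb6, Itgb7 and Lamb3 were too low to test, with at most 12 counts in a library. Itgae and Itgb7, which pair in lymphocytes of epithelia, had 8, 7 and 2 and 6, 4 and 12 counts in the rd10 libraries, against 4, 8 and 0 and 2, 8 and 4 in the WT libraries. Itgb6, an epithelial partner of Itgav, had 0, 0 and 0 counts in the rd10 libraries, against 2, 2 and 3 in the WT libraries. The 6 untested genes did not pass the filter at this depth, so no result is given for a difference in them. In Itgb6, at these few counts, every rd10 library lay below every WT library.

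The sign of some of the weaker members changed with the scaling of the libraries. That of Itga8, Itga10 and Itgb3 changed only when 1 library was left out. Over all genes the median shifted by 0.24 on the log2 scale when only library size was used, and by -0.30 when inner neuron genes set the scale. The median over the 27 members other than the leukocyte integrins was 0.45 with TMM factors, 0.69 by library size and 0.15 on the inner neuron scale, where 17 of the 27 were positive. No setting called a member lower.

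Markers of the cells that make or bear these proteins were read in the same libraries. The shares called over all genes tested were 7.12% higher and 7.32% lower. Of 7 Müller glial markers 4 were called higher (median log2 fold change 0.58; 1 without WT-4 or Rd10-3 and 2 without Rd10-4), with a summed level of 9174, 9477 and 8717 CPM in the rd10 libraries, against 7232, 6927 and 6793 CPM in the WT libraries. Of 4 astrocyte markers 3 were tested, Gfap, Aldh1l1 and Pdgfra, and all 3 were called higher (log2 fold changes 2.69, 1.53 and 0.83). The other, Pax2, was too low to test, with 5, 11 and 2 counts in the rd10 libraries, against 9, 4 and 6 in the WT libraries. Which cells made these transcripts cannot be told in bulk retina. Of 6 endothelial markers only Kdr was called (log2 fold change 0.92 ± 0.12, adjusted p = 0.00223), and the median of the 6 was 0.01; none of 5 pericyte markers was called in edgeR, DESeq2 or limma voom, 1 reached an unadjusted p under 0.05, and 2 were called without WT-1. Of 4 tested pigment epithelium markers 3 were called lower, with a summed level of 84.04, 85.9 and 55.4 CPM in the rd10 libraries, against 158, 166 and 196 CPM in the WT libraries. The part of these shifts in the integrin and laminin levels was not tested.

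The genes around integrins and laminins were described with 5 lists of partners. Their counts of calls stand beside shares of 7.12% higher and 7.32% lower over all genes tested. In the basement membrane list, 20 of 21 genes were tested, 4 were called higher and 2 lower, with a median of 0.33, and 4 of the 6 called genes encode chains of collagen IV, the network that is laid beside laminin. Col4a6 had 215, 225 and 197 counts in the rd10 libraries, against 50, 48 and 58 in the WT libraries, a 4.45-fold rise (log2 fold change 2.15 ± 0.18, adjusted p = 0.000453). Col4a5, its usual partner, had 164, 179 and 188 counts in the rd10 libraries, against 86, 80 and 93 in the WT libraries (log2 fold change 1.16 ± 0.17, adjusted p = 0.00362). Col4a3 went the other way, with 37, 31 and 40 counts in the rd10 libraries, against 107, 170 and 190 in the WT libraries (log2 fold change -1.97 ± 0.21, adjusted p = 0.00105). Col4a4, which assembles with Col4a3, fell too, with 29, 36 and 25 counts in the rd10 libraries, against 84, 62 and 78 in the WT libraries (log2 fold change -1.19 ± 0.27, adjusted p = 0.0234), a call lost without Rd10-3 (0.107) or Rd10-5 (0.0842). The common chains Col4a1 and Col4a2 were not called, at 0.26 ± 0.35 (adjusted p = 0.661) and 0.35 ± 0.32 (adjusted p = 0.512). Sparc and Npnt, the ligand of Itga8, were the other genes called higher. The number called higher was 8 without WT-1 and 2 without WT-4 or without any 1 rd10 library, and the number called lower was 1 without Rd10-3 or Rd10-5.

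Of 19 tested matrix ligands of integrins, 6 were called higher and 1 lower, with a median of 0.56. Fn1, fibronectin, had 119 ± 10.2 CPM in rd10 and 61.2 ± 8.29 CPM in WT (log2 fold change 0.96 ± 0.14, adjusted p = 0.00338). Tnc, the tenascin that Itga9 binds, had 50.4 ± 2.60 CPM in rd10 and 30.2 ± 2.97 CPM in WT (log2 fold change 0.74 ± 0.12, adjusted p = 0.00678). Vtn, vitronectin, a ligand of Itgav with Itgb3 or Itgb5 and a gene expressed in photoreceptors, fell to 487 ± 56.6 CPM in rd10, against 1322 ± 214 CPM in WT (log2 fold change -1.44 ± 0.16, adjusted p = 0.00108). Thbs1, Spp1, Vwf and Ltbp1 were the other genes called higher. The number called higher was 9 without WT-1 and 2 without WT-4; Fn1, Tnc and Vtn were called without any 1 library.

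Of 8 tested genes in the list of surface ligands of leukocyte integrins, 5 were called higher and none lower, with a median of 0.96. The list is broader than its name, as it holds the complement protein C3 and a ligand of other chains, Vcam1. C3, the complement protein whose cleavage products bind the receptors built from Itgam and Itgax, had 491, 789 and 602 counts in the rd10 libraries, against 50, 59 and 59 in the WT libraries, the largest rise of the 5 lists at 12.3-fold (log2 fold change 3.62 ± 0.24, adjusted p = 0.000398). Icam1, a ligand of Itgal and Itgam, had 58, 89 and 66 counts in the rd10 libraries, against 12, 13 and 11 in the WT libraries (log2 fold change 2.69 ± 0.30, adjusted p = 0.00117). Vcam1, a ligand of Itga4 and Itga9, had 102 ± 12.1 CPM in rd10 and 32.8 ± 4.91 CPM in WT (log2 fold change 1.64 ± 0.15, adjusted p = 0.000693). F11r and Jam3, junctional adhesion molecules, were the other genes called. None was lower at an unadjusted p under 0.05, in DESeq2 or in limma voom, while removal of the GC trend called 6 higher and 1 lower. In each of the 5 called genes the rd10 libraries lay above all WT libraries.

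Of 27 tested genes for adaptors and signalling proteins at the inner face of integrins, 7 were called higher and 1 lower, with a median of 0.32. The largest rises were in adaptors of blood cells: Parvg, a parvin of leukocytes, had 34, 31 and 34 counts in the rd10 libraries, against 9, 7 and 9 in the WT libraries (log2 fold change 2.09 ± 0.27, adjusted p = 0.00222). Apbb1ip, which links Rap1 to talin, had 45, 38 and 34 counts in the rd10 libraries, against 11, 6 and 13 in the WT libraries (log2 fold change 2.07 ± 0.33, adjusted p = 0.00516). Fermt3, the kindlin of blood cells, had 32, 33 and 17 counts in the rd10 libraries, against 11, 7 and 8 in the WT libraries (log2 fold change 1.77 ± 0.41, adjusted p = 0.0241), a call lost without WT-4 (0.105), WT-23 (0.054), Rd10-3 (0.101) or Rd10-4 (0.082). Tln2, the talin of neurons and muscle, fell to 216 ± 7.32 CPM in rd10, against 313 ± 15.7 CPM in WT (log2 fold change -0.54 ± 0.10, adjusted p = 0.0105), a call lost without WT-4 (0.0734) or Rd10-3 (0.0741). These blood cell adaptors moved with the microglial markers, and the part of that shift was not tested. Cd47, Parva, Parvb and Vcl were the other genes called higher. The number called higher was 11 without WT-1, 2 without WT-4 or Rd10-3, and 3 without Rd10-4 or Rd10-5; Parvg and Apbb1ip were called in each.

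Of 17 tested laminin receptors and linkers other than integrins, 2 were called higher (11.8%) and 2 lower. The shares over all genes tested were 7.12% and 7.32%. The median of the list was -0.10 (0.14 by library size). Egflam encodes pikachurin, the ligand of dystroglycan at the photoreceptor ribbon synapse, and fell to 207 ± 24.9 CPM in rd10, against 469.6 ± 25.9 CPM in WT (log2 fold change -1.18 ± 0.12, adjusted p = 0.000966). Dmd, dystrophin, which ties dystroglycan to actin, had 549, 400 and 789 counts in the rd10 libraries, against 1169, 1517 and 2230 in the WT libraries (log2 fold change -1.37 ± 0.25, adjusted p = 0.00884), a call lost without Rd10-3 (0.0524). Dag1, the gene of dystroglycan, gave 0.47 ± 0.12 (adjusted p = 0.0380) and Sgce, a sarcoglycan, 0.55 ± 0.12 (adjusted p = 0.0219). Neither was called without WT-4 or without any 1 rd10 library, and Dag1 also not without WT-23 (0.0643); the number called lower was 1 without Rd10-3. The lower calls in this list moved with the rod markers, all 5 of which were called lower; their part in the result was not tested.

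**Figure D5:**
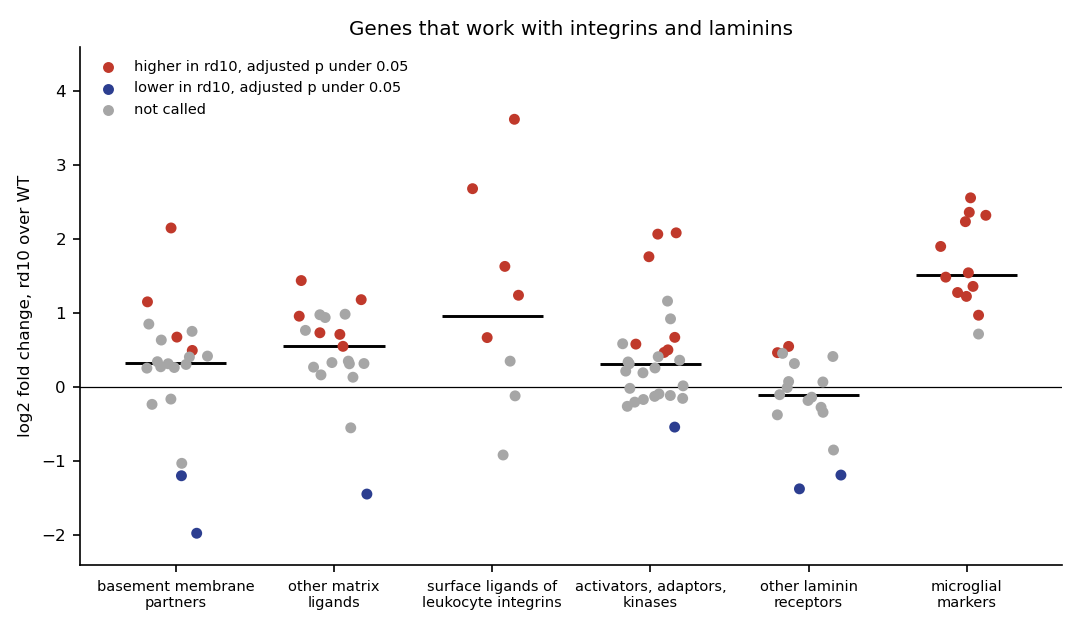
Log2 fold change of rd10 over WT (vertical axis) for each tested gene of the 5 partner lists and of the microglial markers, with the median as a line, genes called higher in red, genes called lower in blue and genes not called in grey. The microglial markers and the list of surface ligands, led by C3 at 3.62, reach highest. The laminin receptors other than integrins have a median of -0.10 (0.14 by library size).

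The authors' deposited table gives 1 FPKM value per group and lists 9 of the 37 genes: Itga6, Itga9, Itgam, Itgb1, Itgb2, Itgb5, Lama5, Lamb2 and Lamc1. By its name, that table was cut on p, fold change and FPKM, so its genes had been selected for a difference. In the authors' deposited table all 9 are higher in rd10, by log2 fold changes of 0.36 for Itgb1 to 2.12 for Itgb2. Itgam is given there at 3.5 FPKM in rd10 and 0.8 FPKM in WT, and Itgb2 at 5.9 FPKM in rd10 and 1.4 FPKM in WT. For the 4 listed genes that missed the threshold here, the authors' deposited table has p-values of 0.0319 for Itgb1, 0.00161 for Itgb5, 0.0481 for Lama5 and 0.0101 for Lamb2, and whether these were adjusted is not stated.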

How the data were processed

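RNA-seq libraries were made with a strand-marking TruSeq protocol from 1 µg of total RNA, per the labels' protocols. The submitters' processing notes name the build mm10 and, without role or order, edgeR, HTSeq and TopHat2 2.1.0; the sources used here name no annotation, strand setting of the counting or aligner settings. Raw gene counts as the authors deposited them, 1 column for each of 6 libraries, were the input. The columns' own numbers are not the replicate numbers of the titles, so each was assigned to rd10 or WT by its name, which is kept here. A second table that the authors deposited lists genes with an FPKM per group, their log2 fold change (rd10 over WT) and p-value; it was used only as a description.

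Genes were filtered with filterByExpr (13905 left) and fitted with edgeR 4.0.16 (R 4.3.3) by its robust quasi-likelihood method, with TMM factors of 1.08 to 1.10 in rd10 and 0.902 to 0.933 in WT, genotype as the only term, Benjamini-Hochberg adjustment over all genes tested, threshold 0.05. A gene is called when its adjusted p is under that threshold. Standard errors are the absolute log2 fold change divided by the square root of F. Log2 CPM used a prior count of 2. Alternatives were library scaling by RLE, by the upper quartile, by size without factors or on inner neuron genes, other filters, a test against a fold of 1.2, removal of the GC trend, limma 3.58.1 voom, DESeq2 1.42.0 and leaving out each library; leaving out both WT-1 and Rd10-4 was chosen after seeing the data. GENCODE M21 (GRCm38) gave exon lengths, positions and GC content, and it matched all 37 members and 22758 of the 24062 genes (94.6%). The length of a gene was the union of its exons, and rankings between genes per length depend on that choice. Promoter sequences are RefSeq's. Of the members tested, 1 enters the counts and medians but is not reported singly here.

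Tested on simulated data for rd10 over WT (13780 genes), the fit called 14.52% of the 62 genes given a 1.5-fold change, 71.43% of the 70 with a 2-fold change and all 66 with a 4-fold change, and made 8 false calls.

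The members, lists and rules were chosen with earlier results of these data known. Named with per-library values are the leukocyte integrins, the other members called and the 6 uncalled members with the highest CPM per kilobase; members under 1 CPM are summarised by range, and from the other lists the called genes with the 3 smallest p-values are named, not all of them in print. Other values, such as those of Col4a4, Col4a1, Col4a2, Fermt3, Dag1, Sgce and the low or narrowly missed members, were chosen after they were seen.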

Additional observations from a re-analysis of the deposited data

How the results depend on the processing

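Over all genes, 2008 were called (990 higher, 1018 lower); library size alone gave 3043 (2471 higher), inner neuron scaling 4629 (632 higher), a test against a fold of 1.2 1285 and removal of the GC trend 4546, and leaving out 1 library gave 885 (without Rd10-3) to 3214 (without WT-1), with the filter repeated on the 5 libraries kept, which left 14116 to 14168 genes. Of the 31 members tested, 6 were called; library size alone gave 15, upper quartile factors 10, removal of the GC trend 14, leaving out both WT-1 and Rd10-4 11, and leaving out 1 library 4 to 11. The median log2 fold change of the leukocyte integrins exceeded that of the other members by 1.67; without both WT-1 and Rd10-4 this was 1.37, and leaving out 1 library gave 1.498 to 1.84. The causes were not tested.

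Of 521 member values under alternatives, 445 kept their direction and side of the threshold, 9 lost a call, 42 gained one and 25 changed sign, all 25 in members not called. For Itga1 the log2 fold change became 0.00877 with RLE, 0.0879 with the upper quartile, 0.23 by library size, 0.0203 without a filter, 0.0850 with the GC trend removed, 0.00237 in DESeq2 and 0.0982 without both WT-1 and Rd10-4. Lama2 became -0.30 with inner neuron scaling and -0.11 without both libraries. With inner neuron scaling Itga4 became -0.0754, Itga7 -0.00241, Itgav -0.12, Lama4 -0.16, Lamb1 -0.0809 and Lamc3 -0.21. Leaving out 1 library in turn gave -0.19 to 0.23 for Itga1 (positive without WT-23 or Rd10-4, at 0.18 in the second case), -0.14 to 0.20 for Lama2 (negative without WT-1, and -0.12 without Rd10-5), -0.33 to 0.44 for Lamc3 (negative without Rd10-4, and -0.15 without WT-23), -0.0122 to 0.81 for Itga7 (negative without Rd10-4), -0.38 to 0.74 for Itgb3 (negative without Rd10-3), -0.87 to 0.0779 for Itga10 (positive without WT-4) and -0.58 to 0.16 for Itga8 (positive without Rd10-5).

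No paired analysis was possible because the numbers in the column names do not follow the replicate numbers of the samples' titles, and the 2 groups' columns share only 1 number (WT-4 and Rd10-4). At 10923556 to 15818918 counts per library, members with under about 10 counts could not be tested, and few 1.5-fold changes would be called at 3 libraries per group.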

Other observations

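Per length of transcript, Itgav was the most abundant of the 18 integrin alpha chains in every library, at 30.7, 25.6 and 30.3% of their sum in the rd10 libraries, against 30.5, 42.9 and 46.3% in the WT libraries; the groups overlap, with WT-1 level with Rd10-3. Itga9 held 18.5, 17.7 and 17.9% in the rd10 libraries, against 12.4, 13.7 and 12.8% in the WT libraries. Itgam held 12.03, 13.1 and 13.02% in the rd10 libraries, against 4.21, 5.13 and 4.63% in the WT libraries. In both of these the rd10 libraries lay above all WT libraries. Itgax, the rarest of the alpha chains with any WT count in all 3 WT libraries, held 2.20 ± 0.301% in rd10 and 0.142 ± 0.0551% in WT (mean ± SD, n = 3 libraries per group).

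Among the beta chains, Itgb2 held 3.58, 4.92 and 3.38% in the rd10 libraries, against 1.23, 1.90 and 1.004% in the WT libraries. Itgb8 held 4.67, 4.75 and 4.35% in the rd10 libraries, against 4.78, 4.81 and 6.78% in the WT libraries. Itgb2 was below Itgb8 in every library except Rd10-4. These shares were not tested.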
